A study of Mus musculus with 6 samples.

Results

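The cytosolic ribosomal proteins are the protein parts of the ribosome that translates nuclear mRNAs. They were taken from the deposited gene table as protein-coding genes named Rpl or Rps with a number and at most a letter a, l or x, together with Rpsa, Rplp0, Rplp1 and Rplp2, and without the Rps6k kinases. The choice used names only and gave 80 of 54532 gene rows, 49 for the large subunit and 31 for the small subunit. Messenger RNA was measured by bulk RNA sequencing of the ischemic liver lobe of C57BL/6 mice, with 1 h of ischemia followed by 12 h of reperfusion. The 3 IRF8-cKO libraries (numbered as IRF8-cKO-71, IRF8-cKO-88, IRF8-cKO-106) came from mice with a hepatocyte-specific deficiency of IRF8, an interferon-regulated transcription factor, and the 3 WT libraries (WT-14, WT-44, WT-77) came from wild-type mice. Within a group, values are given in ascending order of these library numbers. All 6 had the same injury and no uninjured liver was analysed here. The labels used here name neither the driver of the deletion nor the age or sex of the mice.

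Each ribosomal protein is encoded by its own gene, yet most of the proteins are needed in equal numbers, so their mRNAs are usually found at high and similar levels. Most of these mRNAs begin with a terminal oligopyrimidine (TOP) tract, a cytosine at the cap followed by an unbroken run of C and T, through which the kinase mTOR and the protein Larp1 regulate their translation and stability. In liver, ribosome number is known to follow nutrition, growth and regeneration.

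Pyrimidine runs near the annotated start are shown for the members that lay at both ends of the comparison below, since the TOP tract is the sequence feature the family is best known for. Promoter entries in RefSeq (GRCm38.p6, from 250 bases before to 50 after the annotated start) matched 60 of the 80 genes. The longest run of C and T that opened with C, on the gene's strand, was sought from 30 bases before to 50 after the start, because annotated starts often lie some bases from the cap site, and a run marked in this way need not be a TOP tract. In the lines that follow, 25 bases are printed 5′ to 3′ with that run in capitals. The first 6 genes had the most negative log2 fold changes (IRF8-cKO over WT) among genes with an entry, and the last 6 those closest to 0.
Rps2 (chr17:24720088-24720112, + strand): gtcccttccgcggcgCCTCCCTCTT
Rpl35a (chr16:33056472-33056496, + strand): gcttgCCTTCCTCTTTCCgccatct
Rpl38 (chr11:114668575-114668599, + strand): tcgttCTTTCCCCgttctcttcggt
Rps23 (chr13:90923147-90923171, + strand): ccttcctgcaCCTCCTCTCTCTTTC
Rps27l (chr9:66946059-66946083, + strand): ctccaCTCCTCTCCactcctccccg
Rps28 (chr17:33824572-33824596, - strand): tctgtCCCgaggattcctgggtacc
Rpl13a (chr7:45128724-45128748, - strand): caagaCCTCCTCCTTTCCCaggcgg
Rps10 (chr17:27635228-27635252, - strand): gcacgCCCCTTCCTTTCCagcctcc
Rplp0 (chr5:115559475-115559499, + strand): tggttCTCCTataaaaggcacacgc
Rps4x (chrX:102189345-102189369, - strand): cgcagCCTCCgaccctaatttcttc
Rpl4 (chr9:64173408-64173432, + strand): cgtggCCTTCTCCTCTCCCCgtcat
Rpl5 (chr5:107900503-107900527, + strand): agccaCTCTTTCTCacgtcgcttgc

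A run of at least 8 bases was present in 48 of the 60 matched genes (80%) and in 25.99% of the 27025 genes with a promoter entry. The 46 tested members with such a run had a median log2 fold change of -0.54, and the 11 without one had -0.57. Both ends of the list above held long and short runs. Of motifs sought on both strands of the 300 bases, CCGGAAG, the core read by ETS family factors, was in 41.7% of the matched members and 9.93% of all genes. AAGATGGC, the core read by YY1, was in 8.33% and 3.19%, GGGCGG, the core read by Sp1, in 60% and 38.2%, and TATAA, the TATA box core, in 28.3% and 27.99%. The complement of CCGGAAG can overlap a pyrimidine run. Members with CCGGAAG had a median log2 fold change of -0.52 (24 genes) and those without it -0.57 (33 genes).

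Library totals lay between 14758237 and 16805830 gene-assigned reads. Scaling factors for RNA composition were between 0.786 (WT-44) and 1.32 (IRF8-cKO-106), so these 2 libraries were shifted most. Genes of the mitochondrial genome took 7.19%, 20.2% and 14.5% of WT reads and 5.99% to 7.14% in the IRF8-cKO libraries. Irf8 had 152, 110 and 155 reads in WT and 92, 109 and 90 in IRF8-cKO (log2 fold change -0.81, adjusted p = 0.174). Hepatocyte markers were abundant in every library, with summed levels of 98969.5 to 141070 scaled counts (CPM, reads scaled to a fixed library total) in WT and 79284.7 to 106709 in IRF8-cKO, highest in WT-44 and lowest in IRF8-cKO-106. Alb alone made up 61800 to 88708 CPM of this sum in WT and 46924 to 58879 CPM in IRF8-cKO. Of the 9 hepatocyte markers tested, 5 had negative and 4 positive log2 fold changes. Since no label says that the libraries are separate animals, a p-value here reflects only how far these samples spread, which may be technical.

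Ribosomal protein mRNAs made up a smaller part of the IRF8-cKO libraries. They took 2.37%, 2.33% and 2.43% of all gene-assigned reads in the WT libraries. In the IRF8-cKO libraries they took 2.03%, 1.91% and 1.86%. The groups did not overlap, with means of 2.38% ± 0.0503 (SD, n = 3) in WT and 1.93% ± 0.0909 (SD, n = 3) in IRF8-cKO. Both subunits had lower shares, 1.39% ± 0.0147 against 1.16% ± 0.0586 for the large and 0.984% ± 0.0357 against 0.770% ± 0.0324 for the small (SD, n = 3). Without the reads of mitochondrial genome genes the shares were 2.77% ± 0.194 in WT and 2.07% ± 0.0940 in IRF8-cKO. In bulk tissue, fewer cells of a type and less RNA per cell cannot be told apart.

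**Figure D1:**
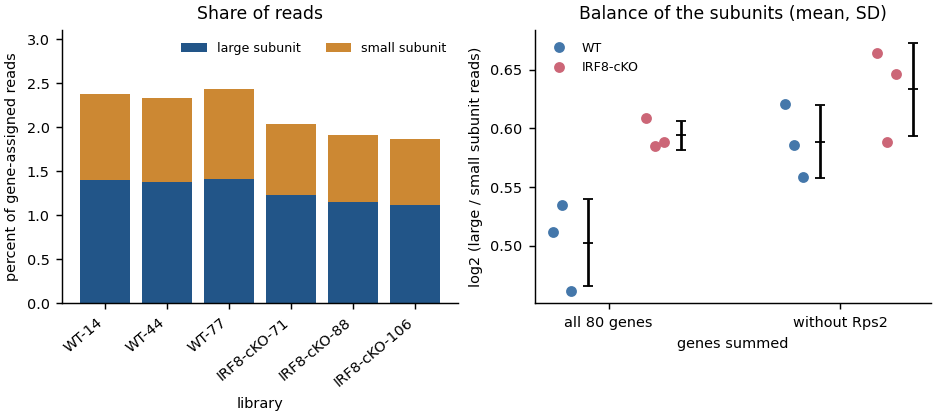
Left: percent of gene-assigned reads in the 49 large subunit genes (blue) and the 31 small subunit genes (orange) of each library; the IRF8-cKO bars, at 1.86% to 2.03%, all stand below the WT bars, at 2.33% to 2.43%. Right: log2 of summed large over summed small subunit reads, one point per library with mean and SD beside it, for all 80 genes and without Rps2; the groups are apart on the left pair and overlap on the right pair.

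No single member passed the test. Of the 80 genes, 77 passed the low-count filter, 46 of the large and 31 of the small subunit. None was called at an adjusted p under 0.05 in edgeR in either direction, beside 0.449% of all 13134 genes tested called higher and 0.937% called lower in IRF8-cKO. The lowest adjusted p was 0.0622 (Rpl35a). At an unadjusted p under 0.05, 22 of the 77 were lower (14 large, 8 small), beside 12.0% of all genes, and 0 were higher, beside 12.1%. DESeq2 called 4 lower, beside 6.16% of all genes, and edgeR with no low-count filter called 5, beside 3.76%.

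The fitted differences nearly all had the same sign. Of the 77 members, 76 had a negative log2 fold change, beside 48.5% of all genes, and the exception was Rpl3. With a correction for transcript length 51 of the 77 were negative, with a median of -0.14. The median was -0.56 for all 77, -0.59 for the large subunit and -0.51 for the small subunit, while the median of all genes tested was 0.03. Values ran from -1.69 (Rps2) to 0.13 (Rpl3). In 39 of the 77 (23 large, 16 small) every IRF8-cKO library was below every WT library in CPM, beside 14.5% of all genes. In 0 of the 77 was every IRF8-cKO library above, beside 14.4%.

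The values also depended in part on the scaling and on single libraries. WT-44 was the highest library in 58 of the 77 members and IRF8-cKO-106 the lowest in 73, and these are the libraries with the most extreme scaling factors. By reads per library total, with no composition factor, 44 of the 77 were lower without overlap, beside 9.72% of all genes, and 0 were higher, beside 15.6%. The median was then -0.35, while that of all genes stood at 0.25, and 68 of the 77 were negative. The count of 22 at an unadjusted p under 0.05 was 3 without WT-44, beside 8.22% of all genes in that fit, 3 without IRF8-cKO-106, beside 9.10%, and 7 without WT-77, beside 7.89%. It was 11 without IRF8-cKO-88, beside 1908 of 13652 genes, and 34 without IRF8-cKO-71, beside 12.3%. By total counts 6 of the 77 were lower at this p, where 2897 of 13134 genes had such a p in either direction. With the correction for transcript length 3 were lower, where 3104 of 13134 genes had such a p either way. With a correction for gene length 11 were lower, where 3046 of 13134 genes had such a p either way. Counts in either direction do not give the share of all genes that were lower. Whether 6, 3 and 11 members exceed that share therefore cannot be read from them.

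**Figure D2:**
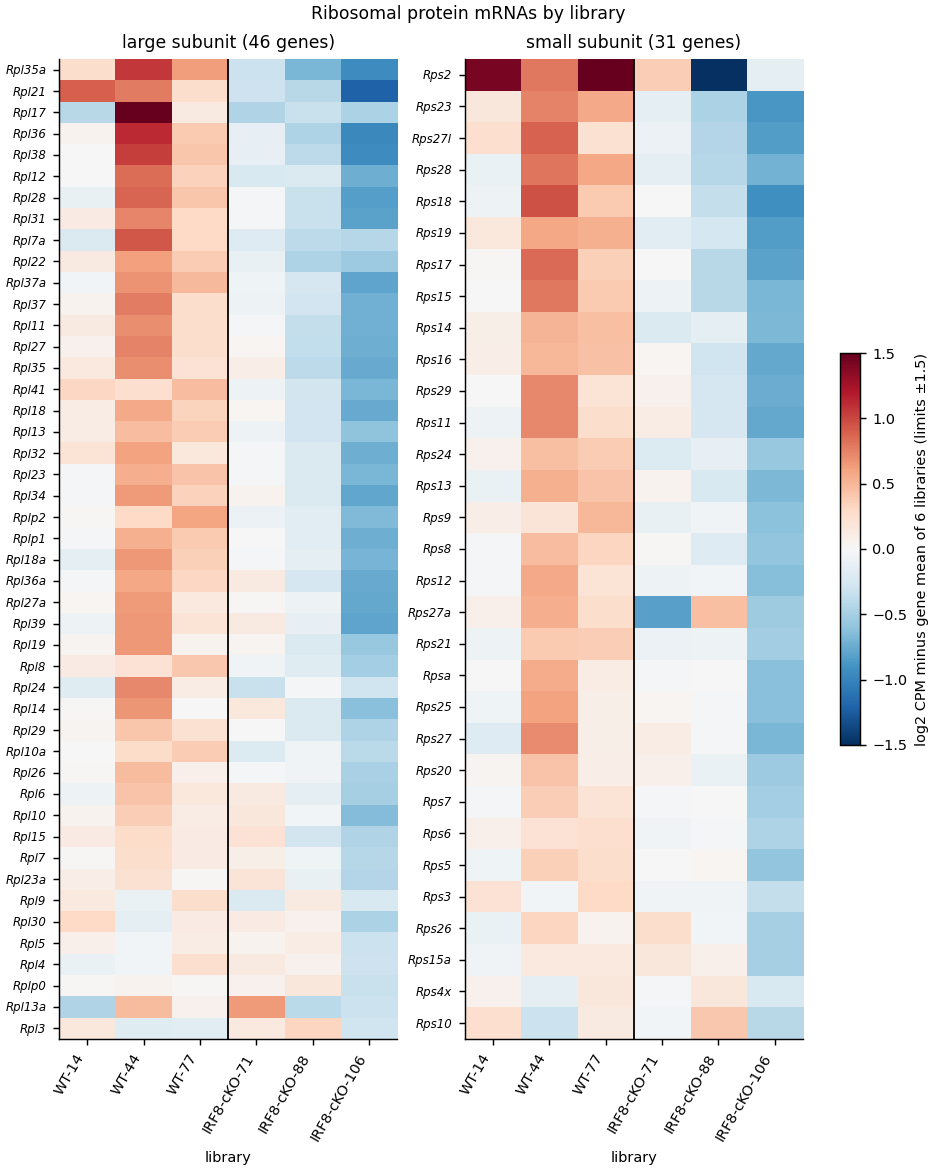
Each row is a member that passed the filter, ordered by log2 fold change within its subunit, and each column a library; colour is log2 CPM minus the gene's mean over the 6 libraries, with colours capped at 1.5 on either side. WT-44 is the reddest column and IRF8-cKO-106 the bluest, being highest in 58 and lowest in 73 of the 77 members.

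Levels between genes were compared as reads per kilobase of the principal GENCODE transcript on the CPM scale (RPKM), as means of the 6 libraries. The most abundant large subunit mRNAs were Rplp1 (1100 RPKM), Rpl10 (754) and Rpl41 (637), and the most abundant small subunit mRNAs were Rps18 (744), Rps14 (676) and Rps25 (613). The least abundant tested were Rpl24 (5.92), Rpl13a (16.1) and Rpl21 (53.1) of the large and Rps10 (5.08), Rps20 (69.7) and Rps3 (191) of the small subunit. Beside some of these low values stand shared or overlapping reads, whose part was not tested. The principal exons of Rps10, Rpl24 and Rpl13a lie by 91.6%, 71.5% and 59.3% of their bases inside another gene on the same strand (RPS10-NUDT3, Gm28037 and Gm45713), and these were the 3 members with over 50% so covered. They received 23 to 53, 50 to 74 and 193 to 407 reads a library. Over the 6 libraries Rps10 had 244 reads and its aligned copies 6273, Rpl24 373 and 877, and Rpl13a 1589 and 239. The principal transcript of Rps20 is annotated with 3706 bases for a coding length of 357, which lowers its value per kilobase. How the authors' counting treated reads of overlapping genes is not stated in the labels used here.

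The stalk of the large subunit, which recruits the elongation factors, is built of Rplp0, Rplp1 and Rplp2. Rplp0 measured 807, 823 and 804 CPM in WT and 832, 896 and 633 CPM in IRF8-cKO. The groups overlapped, and only IRF8-cKO-106 was below WT (log2 fold change -0.04, SE 0.30, adjusted p = 0.940). Rplp1 measured 523, 764 and 692 CPM in WT and 528, 469 and 318 CPM in IRF8-cKO. WT-14 and IRF8-cKO-71 lay side by side (-0.59, SE 0.32, adjusted p = 0.284). Rplp2 measured 191, 232 and 285 CPM in WT and 178, 168 and 119.6 CPM in IRF8-cKO. Its groups did not overlap, and the difference missed the threshold (-0.61, SE 0.30, adjusted p = 0.235). Rplp1 and Rplp2, the short acidic proteins bound to Rplp0, thus had fold changes near the family median and Rplp0 one near 0.

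Rpl5 and Rpl11 carry the smallest ribosomal RNA into the large subunit and, when free, bind Mdm2, the ubiquitin ligase of p53. Rpl5 measured 415, 384 and 427 CPM in WT and 407, 427 and 317 CPM in IRF8-cKO. Its groups overlapped, and only IRF8-cKO-106 was outside the WT range (-0.09, SE 0.28, adjusted p = 0.862). Rpl11 measured 349.7, 517 and 382 CPM in WT and 315, 249 and 194 CPM in IRF8-cKO. All 3 IRF8-cKO libraries were below WT, with an adjusted p of 0.198 (-0.72, SE 0.31). Rpl26, which also binds p53 mRNA, was lower without overlap (-0.37, SE 0.29, adjusted p = 0.450).

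Among proteins near the catalytic centre and the exit tunnel, values ranged from 0.13 to -0.49 in the 4 genes described here. Rpl3, whose loop reaches the peptidyl transferase centre, measured 437, 344 and 352 CPM in WT and 433, 491 and 319 CPM in IRF8-cKO. The groups overlapped fully, and its value was the only positive one (0.13, SE 0.30, adjusted p = 0.810). It stood at -0.003 without IRF8-cKO-88. Rpl4, which lines the exit tunnel, measured 664, 695 and 849 CPM in WT and 787, 748 and 576 CPM in IRF8-cKO (-0.07, SE 0.30, adjusted p = 0.912). Rpl8, close to the catalytic centre, measured 393, 418 and 478 CPM in WT and 347, 319 and 253 CPM in IRF8-cKO. Its IRF8-cKO libraries all lay below WT (-0.49, SE 0.28, adjusted p = 0.312). Rpl10, the last protein to join the large subunit, overlapped between groups (-0.32, SE 0.32, adjusted p = 0.560).

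The most negative large subunit values belonged to Rpl35a, Rpl21, Rpl17 and Rpl36. Rpl35a (mm10, chr16:33056453-33060189, + strand), a gene mutated in some patients with Diamond-Blackfan anemia, measured 125, 217 and 161 CPM in WT and 83.6, 64.8 and 54.3 CPM in IRF8-cKO. The highest IRF8-cKO library was well below the lowest WT library (-1.31, SE 0.31, adjusted p = 0.0622). In DESeq2 its adjusted p was 0.00367. Rpl36 measured 221, 460.0 and 278 CPM in WT and 194, 154 and 108 CPM in IRF8-cKO. WT-44 stood far above the other WT libraries, and the groups did not overlap (-1.07, SE 0.36, adjusted p = 0.125; DESeq2 0.0486). Rpl21 measured 78.6, 72.9 and 50.8 CPM in WT and 34.2, 31.8 and 18.3 CPM in IRF8-cKO. Again no library overlapped (-1.26, SE 0.32, adjusted p = 0.0705; DESeq2 0.0102). Without IRF8-cKO-88 Rpl21 was the only member called (-1.36, adjusted p = 0.0441), beside 4.61% of all genes called lower in that fit.

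Rpl17, a protein at the mouth of the exit tunnel, measured 95.5, 374 and 140.5 CPM in WT and 93.1, 101 and 91.6 CPM in IRF8-cKO. Its value of -1.09 (SE 0.46, adjusted p = 0.184) rested on WT-44 and was -0.32 without that library. Rpl38, which is needed for the translation of a set of Hox mRNAs, measured 111, 228 and 148 CPM in WT and 102, 84.3 and 57.7 CPM in IRF8-cKO. The groups did not overlap (-0.998, SE 0.35, adjusted p = 0.131). Rpl22, which has a role in T cell development, had -0.75 (SE 0.28, adjusted p = 0.147), and its paralog Rpl22l1, outside the naming rule, had -0.64 (SE 0.28, adjusted p = 0.200). Rpl41, which encodes one of the shortest known proteins, measured 389, 374 and 432 CPM in WT and 296, 259.7 and 195 CPM in IRF8-cKO. WT-44 was its lowest WT library, unlike in most members, and the groups stayed apart (-0.67, SE 0.29, adjusted p = 0.194). Rpl10a, beside the path of the exiting tRNA, also showed no overlap (-0.44, SE 0.28, adjusted p = 0.348). Rpl24, which forms a bridge to the small subunit, and Rpl13a, which can leave the ribosome to silence inflammatory mRNAs, overlapped between groups (-0.47 and -0.02).

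In the small subunit the most negative values were those of Rps2, Rps23, Rps27l and Rps28. Rps23, in the decoding centre, measured 316, 469 and 416 CPM in WT and 252, 202 and 153 CPM in IRF8-cKO. Every IRF8-cKO library was below every WT library (-0.99, SE 0.31, adjusted p = 0.108; DESeq2 0.0319). Rps28 measured 54.5, 103 and 87.8 CPM in WT and 52.8, 43.7 and 35.8 CPM in IRF8-cKO. The groups were apart by a narrow gap between WT-14 and IRF8-cKO-71 (-0.89, SE 0.31, adjusted p = 0.131). Rps19, the gene most often mutated in Diamond-Blackfan anemia, measured 259, 346 and 334 CPM in WT and 205, 192 and 129 CPM in IRF8-cKO. Its groups did not overlap either (-0.83, SE 0.30, adjusted p = 0.138). Rps14, another gene tied to failing red cell production through loss of a chromosome arm, measured 412, 553 and 529 CPM in WT and 333, 351 and 243 CPM in IRF8-cKO. The gap between its groups was clear but did not pass (-0.69, SE 0.30, adjusted p = 0.197). Rps18, at the head of the subunit, overlapped between groups (-0.86, SE 0.37, adjusted p = 0.191).

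Rps6, whose phosphorylation by the S6 kinases is the usual readout of mTOR activity, measured 523, 580.2 and 594 CPM in WT and 480.0, 486 and 360.3 CPM in IRF8-cKO. These libraries did not overlap, and the adjusted p was 0.461 (-0.36, SE 0.29). Rpsa, also known as a laminin receptor, measured 762, 1117 and 821 CPM in WT and 746, 757 and 495 CPM in IRF8-cKO. WT-14 and IRF8-cKO-88 were almost level, though no library overlapped (-0.43, SE 0.32, adjusted p = 0.426). Rps3, at the mRNA entry site and also active in DNA repair, had -0.31 (SE 0.28, adjusted p = 0.518). Rps7 and Rps20, which can bind Mdm2, overlapped between groups (-0.36 and -0.37), as did Rps25, needed by some viral internal ribosome entry sites (-0.42). Rps26 at the mRNA exit channel, Rps15a, Rps4x and Rps10 lay nearest 0 in this subunit, at -0.16, -0.14, -0.06 and -0.03, and overlapped.

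Rps27a encodes a ribosomal protein fused to ubiquitin, and among the 77 members its IRF8-cKO libraries were the most spread after those of Rps2 (SD of log2 CPM 0.66 and 2.36). It measured 232, 322 and 264 CPM in WT and 126, 301 and 153 CPM in IRF8-cKO. IRF8-cKO-88 lay within the WT range while the other two lay below it (-0.50, SE 0.37, adjusted p = 0.419). The value was -0.97 without IRF8-cKO-88 and -0.26 without IRF8-cKO-71.

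Several members have a tissue-restricted or inducible paralog. Of the 3 members below the filter, Rpl10l, the testis copy of Rpl10, had 0 reads in all 6 libraries. Rpl39l had 2 reads in IRF8-cKO-71 and 1 in IRF8-cKO-88, and Rpl3l, the heart and skeletal muscle form of Rpl3, had 1 in WT-14 and 3 in WT-44. Their ubiquitous partners Rpl10, Rpl39 and Rpl3 were at 754, 312 and 293 RPKM. Rps27l, which p53 induces, was expressed beside Rps27. It measured 184, 287 and 181 CPM in WT and 146, 114 and 86.9 CPM in IRF8-cKO and did not overlap (-0.91, SE 0.32, adjusted p = 0.133). Rps27 measured 158, 293 and 191 CPM in WT and 194, 176 and 112 CPM in IRF8-cKO and overlapped (-0.41, SE 0.34, adjusted p = 0.475). Rpl39 overlapped as well (-0.50, SE 0.33, adjusted p = 0.366).

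**Figure D3:**
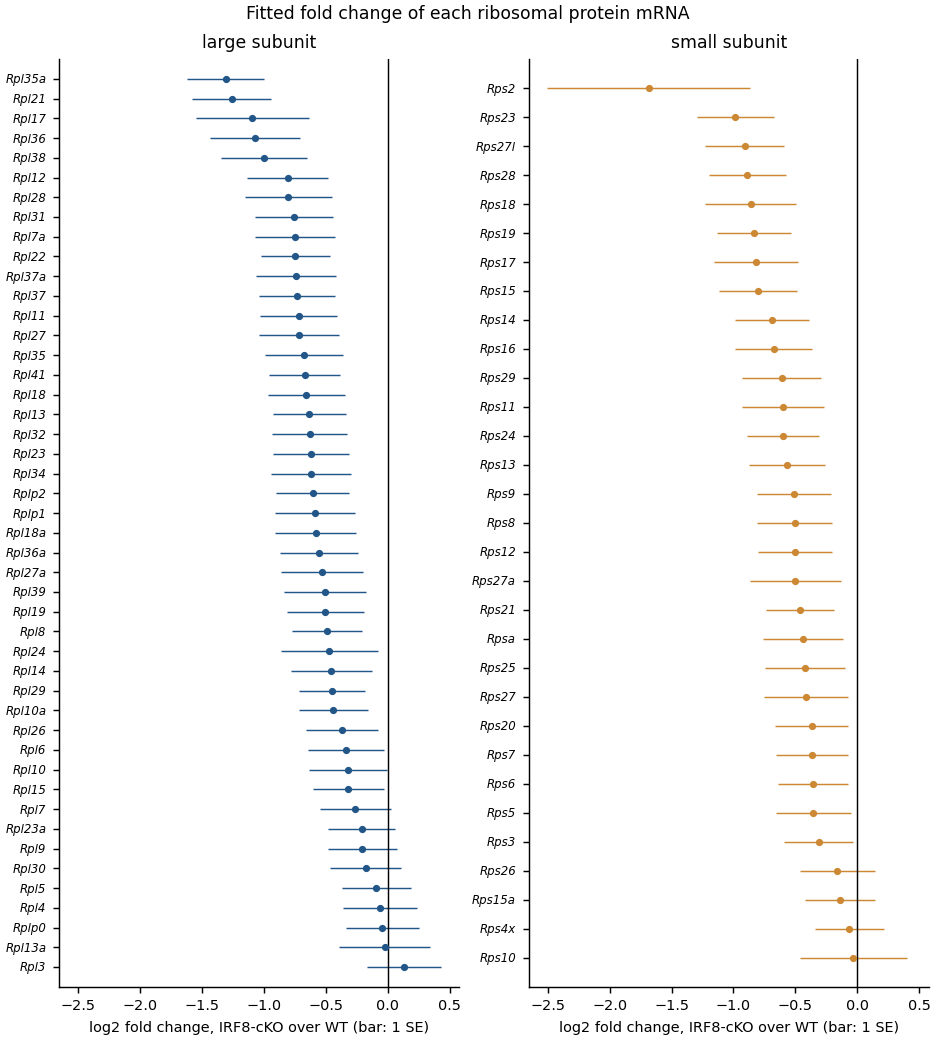
Log2 fold change (IRF8-cKO over WT) of each of the 77 tested members with a bar of 1 SE on each side, large subunit left and small subunit right, ordered by value. All points but Rpl3 lie left of 0, and Rps2 has the widest bar.

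Reads were also assigned to copies of these genes in the genome. Whether such reads came from the copies or from the members was not tested. Aligning transcripts found 1039 copies, 986 of them processed pseudogenes, for 75 of the 80 members, and 478 had at least 1 read. Together they held 9.82% as many reads as the members. The share of a member's own gene among member and copy reads varied by under 5 percentage points over the libraries in 60 tested members and by over 10 points in 7. The 7 were Rps2, Rpl21, Rpl17, Rpl30, Rps27, Rpl7a and Rps12, a list made after the values were seen. For Rps27, 9622 of the 9648 copy reads were those of Rps27rt, which is listed as protein-coding. Rps27rt is also among the further ribosomal protein genes and paralogs outside the naming rule, described below.

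Rps2, whose protein lies at the mRNA entry, was the extreme case. It received 10805, 4941 and 10632 reads in WT and 5163, 259 and 4831 in IRF8-cKO. Rps2-ps10, which is listed as a transcribed processed pseudogene, received 29, 1192 and 39 reads in WT and 1871, 3434 and 2034 in IRF8-cKO. The gene and this pseudogene were thus high in opposite libraries. Rps2-ps13 received 681, 1206 and 648 reads in WT and 1181, 1231 and 1147 in IRF8-cKO. Rps2 held between 5.02% (IRF8-cKO-88) and 89.9% (WT-77) of the reads of itself and its 54 copies. Its own difference was -1.69 (SE 0.82, adjusted p = 0.244). With the copies added it was -0.82 (adjusted p = 0.152), from 740 (WT-14), 665 and 785 CPM against 533, 318 and 395 CPM, and the groups stayed apart.

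The near identity of gene and copies can be read from the sequence. Over 879 aligned bases Rps2-ps10 differed from the Rps2 transcript at 5 positions (99.4% identity), and all 5 differences were also in Rps2-ps13 (mm10, chrX:52898588-52899469, + strand), which had 7 over 882 bases (99.2%). Counted from the first base of the Rps2 transcript in GENCODE M21, the lines that follow show bases 265 to 290, with T277C, and bases 505 to 530, with C517T and C526A, as coding-strand reference sequence with the differing bases in capitals.
Rps2, bases 265 to 290: caagctgggccgTctggttaaggaca
Rps2-ps13, same bases: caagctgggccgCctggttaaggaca
Rps2, bases 505 to 530: caaggaggttgcCactgccatCcgag
Rps2-ps13, same bases: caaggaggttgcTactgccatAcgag

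Rpl17 showed a like pattern to a lesser degree, mainly in WT-44. Rpl17 received 1558, 4336 and 2114 reads in WT and 1509, 1643 and 1977 in IRF8-cKO, while Rpl17-ps10 received 3153, 1169 and 3358 in WT and 2929, 2704 and 2204 in IRF8-cKO. WT-44 was thus the library with most Rpl17 and fewest Rpl17-ps10 reads. Rpl17 with its copies had a log2 fold change of -0.74 (adjusted p = 0.199). Rpl21 held 33.1% to 64.7% of the reads of itself and its copies, and with them its value was -0.86 (adjusted p = 0.117). Rpl21 itself received 1282, 844 and 764 reads in WT and 555, 516 and 395 in IRF8-cKO. Its copies together received 698, 962 and 1131 in WT and 891, 741 and 797 in IRF8-cKO, so the copy reads overlapped between groups. With copies added throughout, the family median was -0.55 and 76 of 77 members stayed negative.

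**Figure D4:**
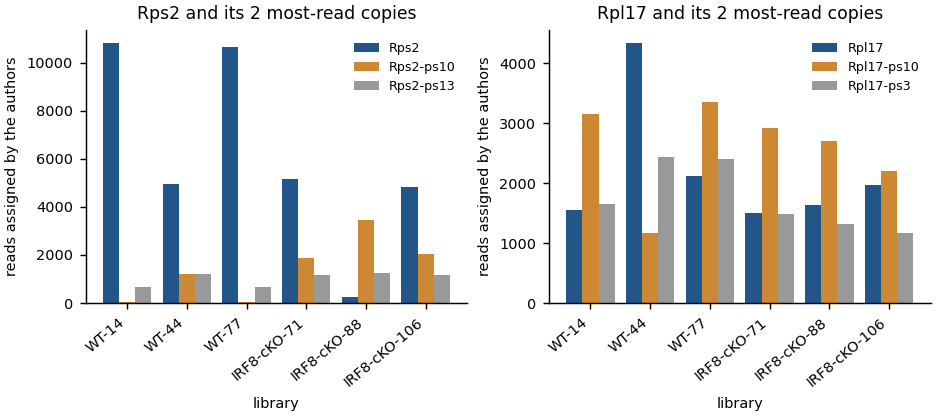
Reads assigned by the authors' counting to Rps2 and its 2 most-read copies (left) and to Rpl17 and its 2 most-read copies (right) in each library. In IRF8-cKO-88 Rps2 has 259 reads and Rps2-ps10 3434, the reverse of WT-14 and WT-77.

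Large and small subunit mRNAs were compared within each library, where scaling plays no part. The log2 ratio of large to small subunit reads was 0.51, 0.53 and 0.46 in WT and 0.61, 0.59 and 0.59 in IRF8-cKO. The groups did not overlap, at 0.50 ± 0.037 against 0.59 ± 0.013 (SD, n = 3), a difference of 0.09. Without Rps2 the ratios overlapped, at 0.59 ± 0.031 against 0.63 ± 0.040, a difference of 0.04. With the copies added the difference was 0.05, again with overlap.

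Shorter members had more negative differences. The 10 members with a coding length up to 300 bases had a median log2 fold change of -0.70, the 27 up to 450 bases -0.62, the 19 up to 600 bases -0.57, the 18 up to 900 bases -0.36, and the 3 longest (Rplp0, Rpl3 and Rpl4) -0.04. Other protein-coding genes showed a like order at higher values, with -0.46 (239 genes), -0.24 (538), -0.18 (724), -0.03 (1632) and 0.05 (3389) in the same bins and 0.15 (5356) above 1500 bases. Members were below the other genes in each shared bin. Spearman's rho between log2 fold change and coding length was 0.43 over the 77 members, 0.56 over the 46 of the large and 0.21 over the 31 of the small subunit. Over 11878 other coding genes it was 0.15. In each library, rho was also taken between coding length and the members' log2 CPM minus each gene's mean. It was 0.06, -0.41 and -0.28 in WT and 0.15, 0.33 and 0.61 in IRF8-cKO. The values furthest from 0 were those of IRF8-cKO-106 and WT-44, which have the most extreme scaling factors. These are descriptions across genes, which share the same 6 libraries. With the correction for transcript length the medians of the large and small subunit were -0.14 and -0.13. With a correction for gene length the family median was -0.36 (69 of 77 negative). The part of fragment or RNA length in the difference was not tested further.

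**Figure D5:**
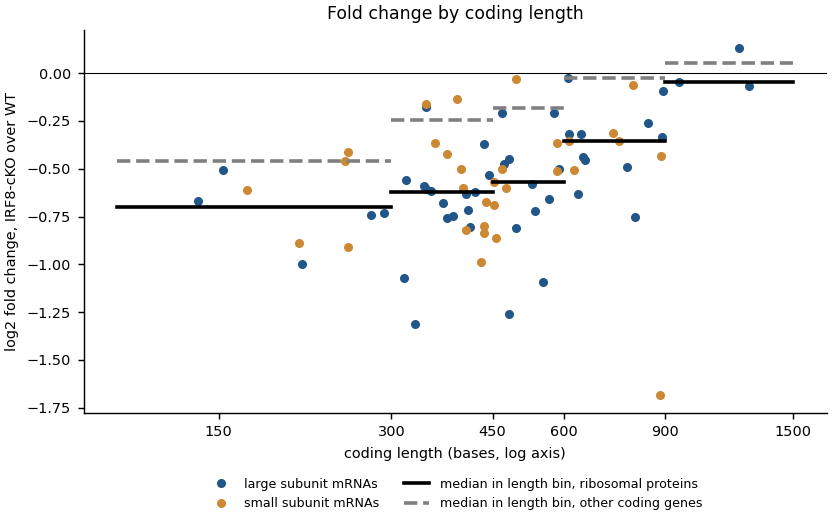
Log2 fold change against coding length (log axis) for the 46 large (blue) and 31 small (orange) subunit mRNAs. Solid bars are the members' median in each length bin, from -0.70 in the shortest to -0.04 in the longest, and dashed bars that of other coding genes, from -0.46 to 0.05.

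Lists of other genes of ribosome production and translation were placed beside the family. In edgeR 0 genes of these lists were called in either direction, beside 1.39% of all genes tested. The counts at an unadjusted p under 0.05 and in DESeq2 follow with each list. Over all genes tested, 12.0% were lower and 12.1% higher at that unadjusted p, and DESeq2 called 6.16% lower. The 7 further ribosomal protein genes and paralogs that the naming rule left out had a median of -0.64. Of these 6 were negative, 3 were lower at an unadjusted p under 0.05 and 1 was called lower by DESeq2. Among them were Fau, whose product is cleaved into ubiquitin-like and ribosomal parts (-0.76, adjusted p = 0.170), and Rps3a1 (-0.41). The positive one was Rpl7l1 (0.49, adjusted p = 0.302). Every IRF8-cKO library lay above every WT library in Rpl7l1 and below in 3 of the 7, beside 14.4% and 14.5% of all genes. Rpl36al had at most 4.92 CPM in any library. The hosts of small nucleolar RNAs, many of them TOP genes, had a median of -0.97 (14 genes, 13 negative, 9 lower at an unadjusted p under 0.05, 3 in DESeq2). Every IRF8-cKO library lay below every WT library in 7 of the 14 and above in 1, beside 14.5% and 14.4% of all genes. Gas5, Snhg1, Snhg4, Snhg5, Snhg6, Snhg12, Snhg15, Snhg17, Snhg20 and Zfas1 had their lowest value in IRF8-cKO-71. Only Snhg8 had it in IRF8-cKO-106, the lowest library in 73 of the 77 members. Snhg15, the host with the lowest p, measured 7.54, 20.03 and 13.1 CPM in WT and 1.85, 4.997 and 2.78 CPM in IRF8-cKO (-2.07, adjusted p = 0.0616). Its groups did not overlap.

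Elongation and termination factors, of which the elongation factors are in large part TOP genes, had a median of -0.16 (11 genes, 7 negative) and initiation factors 0.06 (37 genes, 17 negative). Ribosome assembly factors had -0.11 (64 genes, 39 negative) and RNA polymerase I with its cofactors -0.17 (14 genes, 8 negative). At an unadjusted p under 0.05, 1 elongation or termination, 0 initiation, 7 assembly and 1 polymerase I gene were lower. In the same order 1, 4, 2 and 1 were higher. The shares of all genes tested were 12.0% lower and 12.1% higher. DESeq2 called 1 elongation or termination gene higher and 0 genes of the other 3 lists, beside 10.8% of all genes called either way. The lowest p among them belonged to Gspt1, a release factor (1.08, adjusted p = 0.0916), Eif2b4, a subunit of the exchange factor for initiation (0.90, adjusted p = 0.110), Utp6, of early small subunit assembly (0.72, adjusted p = 0.122), and Polr1d, a subunit shared by polymerases I and III (-0.64, adjusted p = 0.168). The mTOR pathway and other TOP regulators had a median of 0.18 (19 genes, 5 negative, 2 lower and 3 higher at an unadjusted p under 0.05, 0 in DESeq2), with Rptor, which recruits mTOR substrates, at 0.89 (adjusted p = 0.0990). Mitochondrial ribosomal proteins, encoded in the nucleus but built into another ribosome, had a median of 0.04, with 37 of 77 negative. At an unadjusted p under 0.05, 5 of them were lower and 3 higher, beside 12.0% and 12.1% of all genes. DESeq2 called 1 each way, beside 10.8% of all genes called either way.

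Markers of other cell types were summed in the same libraries. Of the 10 neutrophil markers tested, 9 were lower without overlap, beside 14.5% of all genes (median -2.03). In edgeR 5 were called lower, beside 0.937% of all genes. The 9 summed to 187 to 229.6 CPM in WT and 25.1 to 55.3 in IRF8-cKO. The exception was Lcn2, which injured hepatocytes also express, at 986 to 3355 CPM in WT and 759.7 to 4618 in IRF8-cKO. With Lcn2 included the sums overlapped, at 1215 to 3541 CPM in WT and 785 to 4658 in IRF8-cKO. Erythroid markers summed to 216 to 318 CPM in WT and 101 to 151 in IRF8-cKO. In edgeR 1 of 5 was called lower, beside the same 0.937%. Cholangiocyte markers summed to 48.4 to 98.5 CPM in WT and 13.1 to 41.1 in IRF8-cKO, with 0 of 5 called by edgeR. All 5 cholangiocyte markers (median -2.47) and 4 of the 5 erythroid markers (median -1.24) were lower without overlap, beside 14.5% of all genes. The same counts, 5 and 4, were lower at an unadjusted p under 0.05, beside 12.0%. All 8 Kupffer cell markers had positive values (median 0.91). Of these, 4 were higher at an unadjusted p under 0.05, beside 12.1% of all genes, and 3 without overlap, beside 14.4%. DESeq2 called 8 neutrophil, 3 erythroid, 3 cholangiocyte and 1 hepatocyte marker lower, beside 6.16% of all genes. It called 2 Kupffer cell and 1 stellate marker higher, beside 10.8% of all genes called either way. Summed Kupffer cell (101 to 125 against 109 to 328 CPM), endothelial (78.7 to 132 against 84.0 to 113), stellate (186 to 290.01 against 156 to 269.6) and lymphocyte markers (2.02 to 5.18 against 2.36 to 3.76) overlapped between WT and IRF8-cKO. Of the 8 lymphocyte markers only 1, Cd8a, passed the low-count filter, so that sum came from few reads. No listed marker found in the gene table was at 0 in all libraries, and 9 of the 10 hepatocyte markers were found there. The part of these cell type markers in the ribosomal protein values was not tested.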

How the data were processed

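The deposited table gives raw counts per gene, which the authors did not normalise, for 6 libraries. Per the labels' protocols, Trizol RNA went into NEBNext Ultra libraries. Build mm10, HISAT2 2.0.5 and featureCounts 1.5.0-p3 are named in the submitters' processing notes. Not given in the sources used here are the strand setting, the annotation and how multiply mapped reads were counted, so reads of overlapping, antisense or near-identical genes may be split.

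All 13134 genes left by filterByExpr (minimum count 10, minimum total 15) were fitted in edgeR 4.0.16 (R 4.3.3; TMM scaling, robust quasi-likelihood, group as the only term, two-sided, Benjamini-Hochberg over all genes, threshold 0.05). CPM use the TMM-scaled totals, and log2 fold changes are IRF8-cKO over WT. DESeq2 1.42.0 and limma 3.58.1 (voom) were alternatives, and the script was tested on simulated data. Coding and transcript lengths came from GENCODE M21 principal transcripts. Copies were transcripts aligning with at least 90% identity over 150 bases and 50% of their length. Lowess length corrections used a span of 0.5.

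Named members were a set of structural, regulatory and paralog genes, the 3 highest and 3 lowest levels and 4 largest and 4 smallest log2 fold changes per subunit, and those below the filter. Of each other list, the gene with the lowest p was named where none passed. One gene that this rule takes is not reported here. Members and lists were chosen with earlier results of these data known. The transcript length correction, the aligned copies, the removal of mitochondrial genome genes and the removal of Rps2 and other members were chosen after seeing the data.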

Additional observations from a re-analysis of the deposited data

How the results depend on the processing

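The sign of the family median stayed negative under every alternative run, between -0.70 and -0.14. No paired analysis was possible because the 2 groups share no replicate numbers. Members called lower numbered 5 with no low-count filter (Rpl17, Rpl21, Rpl35a, Rpl36 and Rpl38) and 4 in DESeq2 (Rpl21, Rpl35a, Rpl36 and Rps23), and 0 to 1 with a library left out, and 0 were called higher in all these fits. Over all genes, 0 were called without WT-77, 1 without WT-44 and 20 without IRF8-cKO-106, so a count of 0 members there says nothing about the members. The transcript length correction gave medians of -0.14 for all members, -0.14 for the large and -0.13 for the small subunit. With a library left out, the medians were -0.70 to -0.38 for all, -0.72 to -0.40 for the large and -0.63 to -0.34 for the small subunit, the difference in share -0.494 to -0.406 points and that of the log2 subunit ratio 0.071 to 0.107. The difference in share was -0.707 points without mitochondrial genome reads. The log2 subunit ratio differed by 0.053 with named pseudogenes, 0.044 per kilobase, 0.046 with aligned copies and 0.045 without Rps2. The cause was not tested.

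Of all 77 members, 25 turned positive with the transcript length correction, 7 with the gene length correction and 8 by total counts. Among the named members, those that turned with the transcript length correction were Rpl10 (0.0305), Rpl13a (0.19), Rpl24 (0.0182), Rpl26 (0.20), Rpl4 (0.0223), Rplp0 (0.0955), Rplp2 (0.0217), Rps10 (0.52), Rps15a (0.31), Rps25 (0.10), Rps26 (0.26), Rps27 (0.36), Rps27a (0.0275) and Rps4x (0.21). With the gene length correction the named ones were Rpl13a (0.0917), Rpl4 (0.0792), Rplp0 (0.16), Rps10 (0.0814), Rps26 (0.0583) and Rps4x (0.15). By total counts they were Rpl13a (0.21), Rpl4 (0.14), Rpl5 (0.10), Rplp0 (0.15), Rps10 (0.14), Rps15a (0.0586), Rps26 (0.0461) and Rps4x (0.13). With a library left out, Rpl13a ran from -0.43 to 0.22, Rpl3 ran from -0.00336 to 0.30, Rpl4 ran from -0.14 to 0.0723, Rpl5 ran from -0.17 to 0.0415, Rplp0 ran from -0.14 to 0.10, Rps10 ran from -0.27 to 0.16, Rps15a ran from -0.25 to 0.0547, Rps26 ran from -0.35 to 0.0313 and Rps4x ran from -0.17 to 0.0448. Depth limits Rps10 and Rpl24, with at most 74 reads a library.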

Other observations

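Subunits of respiratory complex I, the NADH dehydrogenase of mitochondria, had a median close to that of the ribosomal proteins. Both medians are without a length correction, and the part of length in this likeness was not tested. Of the 36 tested, 34 had a negative log2 fold change, with a median of -0.59, 12 were lower at an unadjusted p under 0.05, beside 12.0% of all genes, and 0 were called by edgeR (4 lower in DESeq2, beside 6.16%). In 13 of them every IRF8-cKO library lay below every WT library, beside 14.5% of all genes. Subunits of the proteasome, the complex that degrades ubiquitin-tagged proteins, lay on the other side, with a median of 0.52 and 32 of 37 positive. In 17 of these every IRF8-cKO library lay above every WT library, beside 14.4% of all genes. At an unadjusted p under 0.05, 13 were higher, beside 12.1%, with 0 called by edgeR and 4 higher and 1 lower called by DESeq2, beside 10.8% called either way.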
